A study of Mus musculus with 16 samples.

Results

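The 10 genes described here are Hif1a, Slc2a1, Hk2, Pfkp, Aldoa, Pgk1, Ldha, Pdk1, Bnip3 and Vegfa, chosen by name out of the 32285 genes counted, as genes of the hypoxia response and of glycolysis. Their levels were followed in myeloid and stromal cells of bone marrow stromal cell cultures kept for 21 days in osteoblastic medium with 50 μg/ml ascorbic acid and 10 mM β-glycerophosphate, by single-cell RNA-Seq of 3′ ends. The study asked which cells of such cultures respond to the bone hormone FGF23 and to the matrix protein DMP1. Marrow came from 12-week-old male littermates on a C57BL/6J background. In every group both Fgf23 alleles were floxed. WT carried intact Dmp1 and no Cre. Fgf23cKO carried intact Dmp1 and a Dmp1-cre transgene, whose promoter is active in mature osteoblasts and osteocytes. Dmp1KO had both Dmp1 alleles knocked out in every cell and carried no Cre, and Dmp1KO/Fgf23cKO combined that knockout with Dmp1-cre. For each genotype, 3 cultures were given an oligonucleotide tag each, pooled and run in 1 droplet reaction, which means that effects of genotype and of reaction cannot be told apart here and that p-values measure the spread between cultures of 1 reaction. Counts of the first Dmp1KO culture were not used here, which left n = 2 tagged cultures of Dmp1KO and n = 3 of each other genotype.

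HIF-1α, the product of Hif1a, is the oxygen-regulated subunit of hypoxia-inducible factor: prolyl hydroxylases mark it for destruction when oxygen is plentiful, and when it escapes them it pairs with ARNT and binds the core sequence ACGTG or GCGTG near its target genes. Slc2a1 encodes the glucose transporter GLUT1, Hk2 the hexokinase that traps glucose in the cell, Pfkp the platelet-type phosphofructokinase, Aldoa aldolase A, Pgk1 the phosphoglycerate kinase of the first ATP-yielding step, and Ldha the lactate dehydrogenase subunit that turns pyruvate into lactate. Pdk1 encodes a kinase that switches off pyruvate dehydrogenase and so keeps pyruvate out of mitochondria, Bnip3 a receptor for the removal of mitochondria, and Vegfa the secreted factor that draws in blood vessels. Macrophages turn up glycolysis and HIF-1α when activated, and osteoblasts rely on glycolysis while they make matrix. Because HIF-1α is controlled mainly as a protein, the level of its mRNA is not a measure of its activity.

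The members lie on 8 chromosomes of the mouse genome (GRCm38, GENCODE annotation): Hif1a at chr12:73901375-73947530, Slc2a1 at chr4:119108711-119137983, Hk2 at chr6:82725025-82774454, Pfkp at chr13:6579768-6648777, Aldoa at chr7:126795234-126800751, Pgk1 at chrX:106187100-106203699, Ldha at chr7:46841475-46855627, Pdk1 at chr2:71873224-71903858, Bnip3 at chr7:138890836-138909519 and Vegfa at chr17:46016993-46032369. Windows of promoter sequence are shown for the members that hold the ACGTG form of this core, the letters that HIF-1 binds. ACGTG was searched on both strands in promoters of RefSeq (GRCm38.p6), which run from 250 bases before to 50 bases after each listed transcript start, and a palindrome CACGTG counts on both strands. Of 32851 promoters of 300 bases, 19.6% held ACGTG, against 9 of the 15 promoters listed for the members, which belong to 8 of the 10 genes. Capitals mark the match (CACGT where it lies on the other strand), and each window is read in the direction of the gene and taken at the match nearest a listed start.
Hif1a: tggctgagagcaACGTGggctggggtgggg
Slc2a1: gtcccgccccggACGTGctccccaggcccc
Hk2: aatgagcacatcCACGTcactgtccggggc
Aldoa: tgtggctcgagtCACGTcctagcggggcgg
Pgk1: aaatggaagtagCACGTctcactagtctcg
Ldha: cgtgggttcccgCACGTccgctgggctccc
Bnip3: cgcacgcgccgcACGTGccacacgctcccc
Vegfa: ggagtgcgtgccCACGTcagagagcaacat
They lie at chr12:73907785-73907814 for Hif1a, chr4:119108697-119108726 for Slc2a1, chrX:106186957-106186986 for Pgk1 and chr7:46845758-46845787 for Ldha, all on the plus strand. On the minus strand they lie at chr6:82774489-82774518 for Hk2, chr7:126799363-126799392 for Aldoa, chr7:138909596-138909625 for Bnip3 and chr17:46025357-46025386 for Vegfa. The match begins 34 bases before the listed RefSeq start in Ldha, 36 in Slc2a1, 52 in Hk2, 70 in Hif1a, 107 in Bnip3, 126 in Aldoa, 131 in Pgk1 and 211 in Vegfa. That start lies 1497 bases inside the outer 5′ end of the GENCODE gene in Aldoa, 4329 in Ldha, 6492 in Hif1a and 7206 in Vegfa, and at most 34 bases inside it in the other 4, so the windows of these 4 genes with inner starts lie within the gene spans given above. In Pfkp and Pdk1 the GCGTG form was found in place of ACGTG, and it was found in 32.4% of all promoters. At least 1 form was in 12 of the 15 member promoters and in 43.8% of all promoters. A match describes the letters alone.

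The 15 samples with counts held 17793 cells, 14577 of them in the 11 tagged cultures, which held between 470 and 2825 cells and between 9518928 and 72482185 unique molecular identifiers (UMIs) each. Sample 4 of each genotype was read as the untagged cells of the same pool and kept out of the tests. Of the barcodes, 35 were found in more than 1 sample and 0 in 2 samples of a genotype. Over all cells of a genotype, Dmp1 gave 3530 UMIs in WT, 4665 in Fgf23cKO, 5 in Dmp1KO and 175 in Dmp1KO/Fgf23cKO, and Fgf23 gave 9, 10, 2 and 1. Reads from the 3′ end do not show whether the first exon of Fgf23 was removed. Clustering, with the members kept out of the genes that drove it, gave 20 clusters, and 7 of them with 10416 cells (9305 tagged) were myeloid-like and 4 with 1650 cells (891 tagged) stromal-like. Tagged cultures held 259 to 1764 myeloid-like cells and 40 to 130 stromal-like cells. Stromal markers gave 0.0108 to 0.0424% of the UMIs of myeloid-like cells, and myeloid markers 0.296 to 0.703% of those of stromal-like cells, against 4.19 to 5.30% in myeloid-like cells. Cell by cell, 100% of myeloid-like but 83.3% of stromal-like cells held more marker UMIs of their own class than of the other. In the stromal-like cluster 14, myeloid markers gave 2.26% of the UMIs and stromal markers 6.49%. The median myeloid-like cell of a culture held 7196 to 7543 UMIs in WT and 20680.5 to 38066 in the other genotypes. Mitochondrial genes, a sign of RNA quality, moved with genotype, at 2.65 to 2.78% of myeloid-like UMIs in WT and 3.10 to 4.05% in the mutants, and at 2.64 to 2.71% of stromal-like UMIs in WT and 3.63 to 4.49% in the mutants. Cells with over 20% mitochondrial UMIs made up 3.42 to 7.28% of a WT culture, 3.40 and 5.94% in Dmp1KO, 16.3 to 16.6% in Fgf23cKO and 12.2 to 14.5% in Dmp1KO/Fgf23cKO. Leaving out such cells and those with under 500 genes, or leaving out the mitochondrial genes, ended no call in the comparisons within a class except that of Vegfa in stromal-like cells of Fgf23cKO (adjusted p = 0.115 without the genes).

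In myeloid-like cells of Dmp1KO cultures, 5 members rose compared with WT (Slc2a1, Pfkp, Aldoa, Pgk1 and Ldha), 4 fell (Hif1a, Hk2, Bnip3 and Vegfa) and Pdk1 did not pass the test (edgeR's quasi-likelihood test on UMIs summed per culture, Benjamini-Hochberg adjusted p under 0.1). Among the members, the glucose transporter and the enzymes after the hexokinase step thus moved one way. Hk2, the only hexokinase gene among them, moved the other way with Hif1a, Bnip3 and Vegfa. Of the 13178 genes tested, 69.9% were called in this comparison, 35.8% higher and 34.1% lower, so a call by itself sets no gene apart here. Levels are given as CPM (each gene's share of the UMIs of a culture's myeloid-like cells, as edgeR's cpm function gives it after TMM scaling), in the order of the replicate numbers.

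Ldha, at the lactate end of the pathway, stood at 119, 130 and 133 CPM in WT, 185, 178 and 199 CPM in Fgf23cKO, 350 and 306 CPM in Dmp1KO and 152, 160 and 179 CPM in Dmp1KO/Fgf23cKO. Every culture of the 3 mutant genotypes lay above every WT culture, and both Dmp1KO cultures lay above all others. How many of all genes part WT from the mutants in this way was not counted. A lack of overlap, here or below, therefore sets no gene apart. The log2 fold change of Ldha against WT was 1.37 ± 0.08 (SE, adjusted p = 7.13e-10) in Dmp1KO, 0.56 ± 0.07 (adjusted p = 2.41e-05) in Fgf23cKO and 0.36 ± 0.07 (adjusted p = 0.000723) in Dmp1KO/Fgf23cKO. Pgk1 stood at 115, 121 and 120 CPM in WT, 148, 151 and 162 CPM in Fgf23cKO, 254 and 227 CPM in Dmp1KO and 123, 128 and 134 CPM in Dmp1KO/Fgf23cKO. It rose in Dmp1KO (1.02 ± 0.06, adjusted p = 1.34e-09) and in Fgf23cKO (0.37 ± 0.06, adjusted p = 0.000117), and in Dmp1KO/Fgf23cKO the log2 fold change of 0.11 ± 0.06 did not pass the test (adjusted p = 0.117), although the cultures did not overlap with WT.

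Aldoa, which splits fructose bisphosphate, stood at 446, 456 and 480 CPM in WT, 523, 536 and 605 CPM in Fgf23cKO, 891 and 793 CPM in Dmp1KO and 464, 472 and 494 CPM in Dmp1KO/Fgf23cKO. Cultures of Dmp1KO/Fgf23cKO overlapped with WT, and those of the other mutants did not. Its log2 fold change against WT was 0.87 ± 0.07 (adjusted p = 2.28e-08) in Dmp1KO and 0.27 ± 0.06 (adjusted p = 0.00317) in Fgf23cKO. Counts of a second feature of the same name, ENSMUSG00000114515, came to 3 to 14 UMIs per genotype and were left out. Pfkp, the phosphofructokinase, stood at 30.4, 24.1 and 23.3 CPM in WT, 39.3, 31.3 and 37.1 CPM in Fgf23cKO, 66.8 and 58.6 CPM in Dmp1KO and 28.7, 31.1 and 34.8 CPM in Dmp1KO/Fgf23cKO. It rose by 1.31 ± 0.11 (adjusted p = 4.16e-08) in Dmp1KO, 0.50 ± 0.11 (adjusted p = 0.00246) in Fgf23cKO and 0.30 ± 0.11 (adjusted p = 0.0319) in Dmp1KO/Fgf23cKO on the log2 scale, and the last of these calls was lost without WT culture 2 (0.25, adjusted p = 0.15), WT culture 3 (0.23, adjusted p = 0.16) or the third Dmp1KO/Fgf23cKO culture (0.23, adjusted p = 0.11).

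Slc2a1, the glucose transporter, stood at 17.2, 20.8 and 20.1 CPM in WT, 23.1, 21.7 and 21.2 CPM in Fgf23cKO, 41.2 and 37.1 CPM in Dmp1KO and 23.4, 21.8 and 23.8 CPM in Dmp1KO/Fgf23cKO. It rose in Dmp1KO (1.00 ± 0.08 on the log2 scale, adjusted p = 3.19e-08) and slightly in Dmp1KO/Fgf23cKO (0.23 ± 0.08, adjusted p = 0.0319), where the call was lost without WT culture 1 (0.16, adjusted p = 0.12). Hk2 went the other way, at 149, 159 and 148 CPM in WT, 108, 119 and 99.6 CPM in Fgf23cKO, 71.2 and 69.7 CPM in Dmp1KO and 100, 93.0 and 95.2 CPM in Dmp1KO/Fgf23cKO. No mutant culture reached a WT culture. Hk2 fell by 1.11 ± 0.07 (adjusted p = 1.4e-09) in Dmp1KO, by 0.48 ± 0.06 (adjusted p = 1.68e-05) in Fgf23cKO and by 0.66 ± 0.06 (adjusted p = 3.15e-07) in Dmp1KO/Fgf23cKO on the log2 scale.

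Hif1a itself was highest in WT, at 189, 186 and 189 CPM, against 138, 163 and 124 CPM in Fgf23cKO, 107 and 125 CPM in Dmp1KO and 164, 170 and 165 CPM in Dmp1KO/Fgf23cKO. Again no mutant culture reached a WT culture. It fell by 0.69 ± 0.09 (adjusted p = 4.91e-06) in Dmp1KO and by 0.41 ± 0.08 (adjusted p = 0.000932) in Fgf23cKO on the log2 scale. In Dmp1KO/Fgf23cKO it fell by 0.17 ± 0.08 (adjusted p = 0.0789), a call that was lost when any WT or Dmp1KO/Fgf23cKO culture was left out (adjusted p = 0.1 to 0.16) and under RLE size factors (adjusted p = 0.1). Vegfa stood at 68.3, 71.3 and 69.2 CPM in WT, 53.7, 40.2 and 31.9 CPM in Fgf23cKO, 32.2 and 31.4 CPM in Dmp1KO and 46.4, 48.2 and 56.3 CPM in Dmp1KO/Fgf23cKO. Fgf23cKO cultures spread the most. The log2 fold change of Vegfa against WT was -1.13 ± 0.13 (adjusted p = 2.07e-06) in Dmp1KO, -0.74 ± 0.13 (adjusted p = 0.000304) in Fgf23cKO and -0.48 ± 0.12 (adjusted p = 0.00377) in Dmp1KO/Fgf23cKO.

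Bnip3 stood at 24.1, 24.2 and 20.1 CPM in WT, and between 15.2 and 20.1 CPM in the mutant cultures. It fell in Dmp1KO (-0.46 ± 0.09 on the log2 scale, adjusted p = 0.000398), in Dmp1KO/Fgf23cKO (-0.51 ± 0.09, adjusted p = 0.000225) and in Fgf23cKO (-0.28 ± 0.09, adjusted p = 0.0264), and the last call was lost without WT culture 2 (-0.22, adjusted p = 0.13) or Fgf23cKO culture 1 (-0.22, adjusted p = 0.11). With each cell thinned to 1000 UMIs, Bnip3 passed the test in no mutant (-0.24, adjusted p = 0.499, in Dmp1KO, -0.15, adjusted p = 0.792, in Dmp1KO/Fgf23cKO and 0.29, adjusted p = 0.687, in Fgf23cKO). Pdk1 lay between 8.54 and 11.9 CPM in all 11 cultures, with both Dmp1KO cultures, at 11.9 and 11.6 CPM, just above the highest of the others, and it passed the test against WT in no mutant.

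Myeloid-like cells of WT were the shallowest. With every cell thinned to 1000 UMIs, Bnip3 alone of the 9 calls in Dmp1KO compared with WT was lost. In Fgf23cKO the rises of Pgk1 (0.23, adjusted p = 0.414), Aldoa (0.16, adjusted p = 0.315) and Pfkp (0.31, adjusted p = 0.621) were lost too, while Ldha, Hif1a, Hk2 and Vegfa passed. In Dmp1KO/Fgf23cKO, Slc2a1 (0.31, adjusted p = 0.53), Pfkp (-0.0506, adjusted p = 0.93) and Hif1a (-0.20, adjusted p = 0.25) were lost, and Ldha, Hk2 and Vegfa passed. The share of all genes that kept a call with cells thinned was not worked out. Calls kept here therefore do not set the members apart from other genes.

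In Fgf23cKO compared with WT, 4 members rose and 4 fell in myeloid-like cells, where 48.2% of all genes were called (24.6% higher and 23.6% lower). In Dmp1KO/Fgf23cKO compared with WT, 3 rose and 4 fell, where 56.4% were called (28.1% higher and 28.3% lower). These comparisons share the WT cultures. Dmp1KO/Fgf23cKO set against Dmp1KO, with Dmp1 missing in both, differs in the Dmp1-cre transgene, in the Fgf23 deletion that it drives and in the droplet reaction. These cannot be told apart here, and the reads do not show the deletion. In that comparison 3 members were higher (Hif1a, Hk2 and Vegfa) and 6 lower (Slc2a1, Pfkp, Aldoa, Pgk1, Ldha and Pdk1). Of all genes, 67.2% were called there (30.5% higher and 36.7% lower). The log2 fold change was -1.01 ± 0.08 (adjusted p = 1.86e-08) for Ldha, -1.004 ± 0.10 (adjusted p = 2.41e-07) for Pfkp, -0.90 ± 0.06 (adjusted p = 5.06e-09) for Pgk1, -0.82 ± 0.07 (adjusted p = 5.13e-08) for Aldoa and -0.77 ± 0.07 (adjusted p = 1.64e-07) for Slc2a1. Vegfa was higher by 0.65 ± 0.13 (adjusted p = 0.000393, and 0.27 with cells thinned), Hif1a by 0.52 ± 0.09 (adjusted p = 8.58e-05) and Hk2 by 0.45 ± 0.07 (adjusted p = 2.33e-05). Pdk1 was lower, with a value of -0.30 ± 0.12 (adjusted p = 0.0329), a call that was lost without Dmp1KO culture 2 (adjusted p = 0.11) or the first (-0.21, adjusted p = 0.17) or second (-0.26, adjusted p = 0.11) Dmp1KO/Fgf23cKO culture.

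Dmp1KO/Fgf23cKO set against Fgf23cKO, with Cre present in both, differs in Dmp1 and in the droplet reaction, and its differences were smaller. Hif1a was higher and Hk2, Aldoa, Pgk1, Ldha and Bnip3 were lower, with log2 fold changes from -0.26 to 0.23, where 23.2% of genes were called (9.82% higher and 13.4% lower). Pgk1 (-0.26 ± 0.06, adjusted p = 0.00558) and Aldoa (-0.22 ± 0.06, adjusted p = 0.0249) kept their calls whichever culture was left out, and lost them with cells thinned (adjusted p = 0.531 and 0.763). The calls of Hif1a (adjusted p = 0.0579), Hk2 (adjusted p = 0.055), Ldha (adjusted p = 0.0693) and Bnip3 (adjusted p = 0.098) were each lost without at least 1 Fgf23cKO culture and at least 1 Dmp1KO/Fgf23cKO culture, with adjusted p values up to 0.22, 0.2, 0.26 and 0.3.

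**Figure D1:**
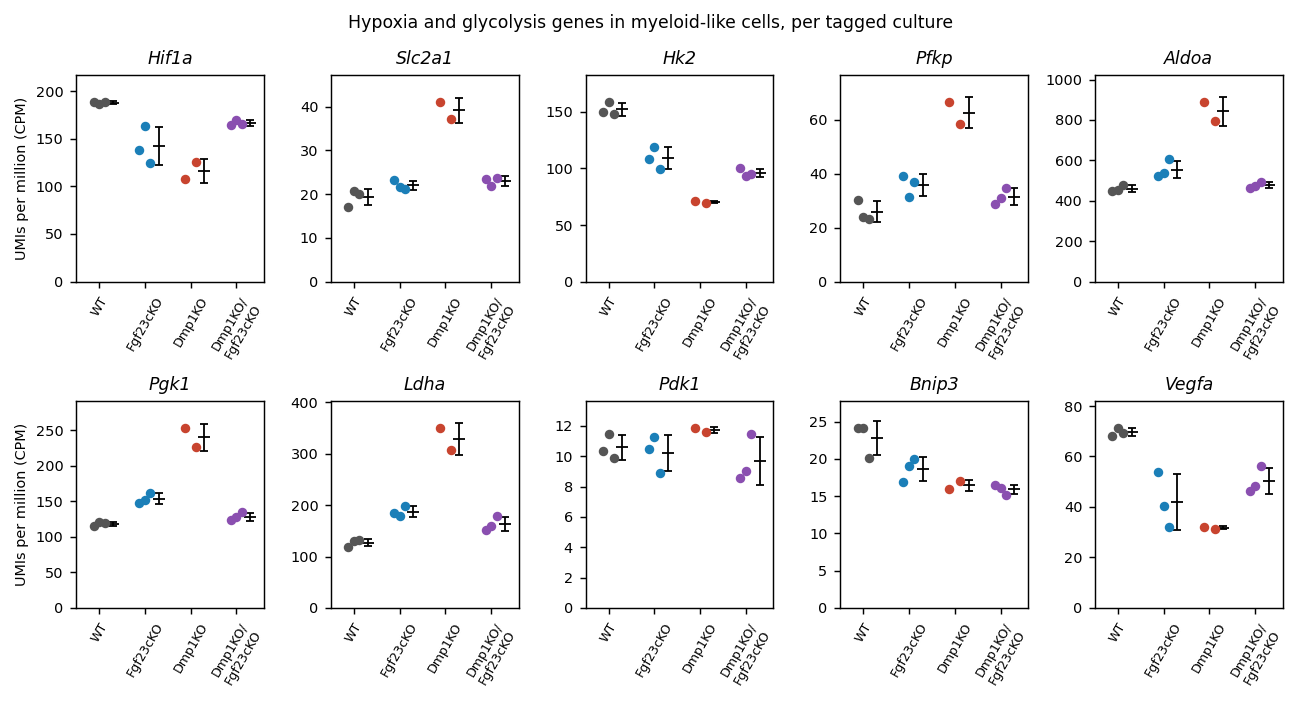
Level of each gene in myeloid-like cells (y axis, CPM after TMM scaling, from 0) in each tagged culture (points), with the mean and SD of each genotype (bar, n = 2 in Dmp1KO and n = 3 elsewhere). Slc2a1, Pfkp, Aldoa, Pgk1 and Ldha are highest in the 2 Dmp1KO cultures, while Hif1a, Hk2 and Vegfa are highest in the 3 WT cultures and Pdk1 spans a narrow range, from 8.54 to 11.9 CPM.

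The genotypes did not fill the same myeloid-like clusters, and the members differed between clusters. Cluster 0 (3133 cells, with Maf and Marco among its 10 leading genes) was 97.8% WT and held 81.9 to 86.2% of the myeloid-like cells of a WT culture. Cluster 1 (2931 cells, led by Cd86 and Pstpip2) was 1.81% WT and held 39.7 to 70.3% of them in Fgf23cKO, 15.3 and 27.1% in Dmp1KO and 78.2 to 80.7% in Dmp1KO/Fgf23cKO. Clusters 2 (led by Itgax, Mfge8 and Mmp12), 6 (led by Cd74 and H2-Aa) and 8 (led by Fgf13 and Lpl) were 95.6, 90.9 and 90.6% Dmp1KO. Levels per cluster are CPM of the summed tagged cells without TMM scaling and are a description, since these cells were clustered by their expression. Aldoa stood at 885 CPM in cluster 2 and 670 CPM in cluster 8, against 437 CPM in cluster 0 and 461 CPM in cluster 1. Ldha stood at 321 and 331 CPM in clusters 2 and 8, against 129 and 166 CPM in clusters 0 and 1. Pgk1 and Pfkp had the same order, with Pgk1 at 233 and 243 CPM against 113 and 132 CPM and Pfkp at 69.8 and 46.7 CPM against 16.8 and 25.9 CPM. Hif1a was at 56.6 CPM in cluster 2 and 90.5 CPM in cluster 8, against 189 and 193 CPM in clusters 0 and 1. Hk2 was highest in cluster 0, at 161 CPM, and between 54.2 and 108 CPM in the other myeloid-like clusters, leaving aside cluster 19 with 4 tagged cells. Cluster 6, with major histocompatibility complex class II genes in the lead, lay between these pairs for Ldha (203 CPM) and Aldoa (578 CPM) and below all 4 of these clusters for Slc2a1 (15.4 CPM). Cluster 3, 37.9% WT, lay above cluster 8 for Aldoa (685 CPM) and Pfkp (65.1 CPM) and below it for Ldha (195 CPM) and Pgk1 (175 CPM). Within cluster 1, mean Aldoa was 497 CPM in Dmp1KO, 472 CPM in Fgf23cKO, 453 CPM in Dmp1KO/Fgf23cKO and 325 CPM in 2 WT cultures.

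**Figure D2:**
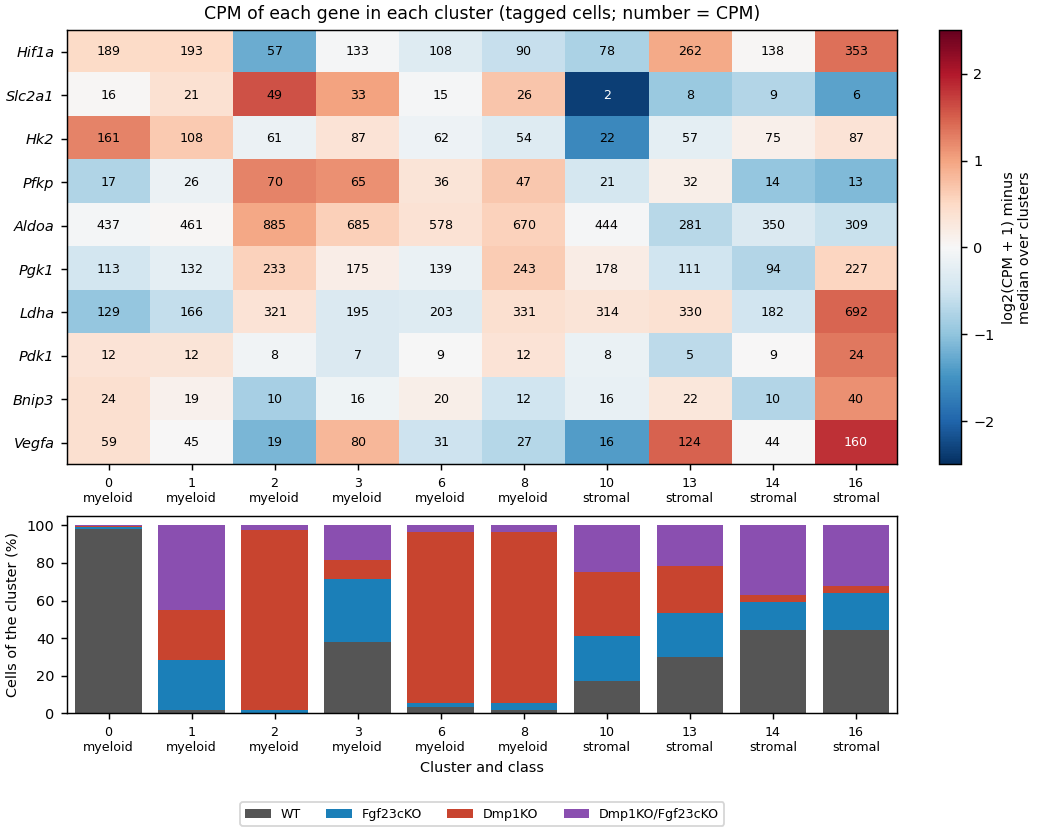
Upper panel, level of each gene in each myeloid-like or stromal-like cluster with at least 50 tagged cells (numbers, CPM of the summed tagged cells; colour, log2(CPM + 1) minus the median of that gene over the clusters shown). Lower panel, share of each cluster's cells that came from each genotype (%, all cells). Clusters 2 and 8, 95.6 and 90.6% Dmp1KO, have high Aldoa, Pgk1 and Ldha and low Hif1a, cluster 0, 97.8% WT, has high Hk2, and cluster 16, with osteoblast markers, has high Ldha, Hif1a and Vegfa. Cluster 3, 37.9% WT, has Aldoa and Pfkp above cluster 8.

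Cluster 3 (1217 cells, with Slc7a11, Srxn1 and Sqstm1, genes of cystine uptake and the oxidative stress response, among its 10 leading genes) was the myeloid-like cluster that all 4 genotypes shared most, with 461 WT, 408 Fgf23cKO, 123 Dmp1KO and 225 Dmp1KO/Fgf23cKO cells. The comparisons were repeated within it, as an alternative chosen after seeing the data. In Dmp1KO compared with WT, the rises of Pfkp (0.01, adjusted p = 0.982), Pgk1 (0.20, adjusted p = 0.315) and Aldoa (-0.09, adjusted p = 0.477) no longer passed the test, and Slc2a1 had the opposite sign without passing it (-0.42, adjusted p = 0.252). Ldha stayed higher (0.50, adjusted p = 0.00485) and Hk2 (-1.15, adjusted p = 1.4e-05) and Vegfa (-0.83, adjusted p = 0.0538) stayed lower, while Hif1a (-0.26, adjusted p = 0.152) and Bnip3 (-0.21, adjusted p = 0.689) did not pass. Within cluster 3, Ldha stood at 139, 158 and 134 CPM in WT and 193 and 246 CPM in Dmp1KO, without overlap. Hk2 there stood at 128, 121 and 113 CPM in WT and 61.8 and 53.1 CPM in Dmp1KO. Aldoa there stood at 751, 692 and 736 CPM in WT and 696 and 763 CPM in Dmp1KO, above its level in the whole myeloid-like class of WT.

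Within cluster 3, Hif1a, Hk2 and Vegfa were also lower and Ldha higher in both Cre-carrying genotypes than in WT. In Fgf23cKO the values were -0.78 (adjusted p = 6e-06) for Hif1a, -0.52 (adjusted p = 0.00113) for Hk2, -1.31 (adjusted p = 0.000209) for Vegfa and 0.46 (adjusted p = 0.00133) for Ldha. In Dmp1KO/Fgf23cKO they were -0.62 (adjusted p = 8.5e-05), -0.69 (adjusted p = 8e-05), -0.74 (adjusted p = 0.0171) and 0.32 (adjusted p = 0.0195) in the same order. Pfkp was lower there than in WT, with values of -0.65 (adjusted p = 0.00149) in Fgf23cKO and -0.39 (adjusted p = 0.0406) in Dmp1KO/Fgf23cKO, where in all myeloid-like cells it was higher. Slc2a1 was lower too, at -0.64 (adjusted p = 0.0137) and -0.46 (adjusted p = 0.0711), and in Dmp1KO/Fgf23cKO so were Aldoa (-0.29, adjusted p = 0.00267) and Pgk1 (-0.27, adjusted p = 0.0664). Hk2, Vegfa and Ldha were thus the members called in the same direction in all 3 mutants both in all myeloid-like cells and in the shared cluster. How many of all genes did so was not counted, so this sets the 3 apart from no other gene. Between Dmp1KO/Fgf23cKO and Dmp1KO within the cluster, Pgk1 (-0.46, adjusted p = 0.027) stayed lower and Hk2 (0.46, adjusted p = 0.0905) higher, Hif1a turned to lower (-0.36, adjusted p = 0.095), and the other 7 members did not pass the test.

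**Figure D3:**
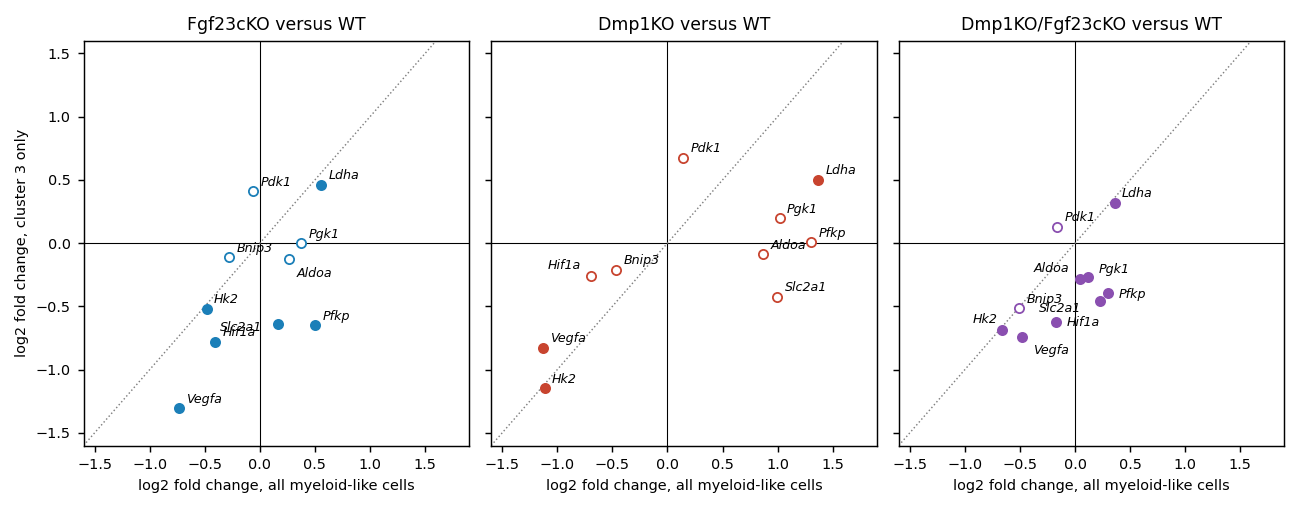
Log2 fold change against WT of each gene in all myeloid-like cells (x axis) and in cluster 3 alone (y axis), for each mutant genotype. Filled points passed the test in cluster 3 (adjusted p under 0.1), open points did not, and the dotted line marks equal values. Slc2a1, Pfkp, Aldoa and Pgk1 of Dmp1KO lie far below the line near a y value of 0 or under it, while Hk2 lies on the line in all 3 panels.

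In stromal-like cells, 4 members rose in Dmp1KO compared with WT (Pfkp, Aldoa, Pgk1 and Pdk1) and 2 fell (Hif1a and Hk2), where 24.9% of 12438 genes were called (11.2% higher and 13.7% lower). In Dmp1KO/Fgf23cKO, 5 rose (Pfkp, Aldoa, Pgk1, Ldha and Pdk1) and Hif1a fell, where 20.1% were called (9.37% higher and 10.7% lower). In Fgf23cKO, Pfkp rose and Hif1a and Vegfa fell, where 15.4% were called (7.46% higher and 7.98% lower). No member differed between Dmp1KO/Fgf23cKO and Dmp1KO by edgeR (0 called, 4 with an unadjusted p under 0.05, and 0 called by DESeq2) or between Dmp1KO/Fgf23cKO and Fgf23cKO (0 called, 2 with an unadjusted p under 0.05, and 1, Ldha, called by DESeq2), comparisons in which 10.5% (5.89% higher and 4.57% lower) and 1.71% (0.909% higher and 0.804% lower) of genes were called.

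Hif1a of stromal-like cells stood at 397, 333 and 403 CPM in WT, 244, 265 and 208 CPM in Fgf23cKO, 227 and 208 CPM in Dmp1KO and 242, 306 and 270 CPM in Dmp1KO/Fgf23cKO. No mutant culture reached a WT culture. It fell by 0.80 ± 0.15 (adjusted p = 0.00394) in Dmp1KO, by 0.66 ± 0.13 (adjusted p = 0.00949) in Fgf23cKO and by 0.47 ± 0.13 (adjusted p = 0.0299) in Dmp1KO/Fgf23cKO on the log2 scale, and the last call was lost without the first Dmp1KO/Fgf23cKO culture (-0.37, adjusted p = 0.12). Pfkp stood at 13.3, 16.1 and 12.9 CPM in WT, 22.3, 22.3 and 27.7 CPM in Fgf23cKO, 25.7 and 29.3 CPM in Dmp1KO and 29.1, 28.5 and 28.5 CPM in Dmp1KO/Fgf23cKO. All 8 mutant cultures lay above the 3 WT cultures, and how common this is over all genes was not counted. The log2 fold change of Pfkp was 1.00 ± 0.18 (adjusted p = 0.00335) in Dmp1KO, 0.79 ± 0.16 (adjusted p = 0.0133) in Fgf23cKO and 1.06 ± 0.16 (adjusted p = 0.00159) in Dmp1KO/Fgf23cKO. Hk2 stood at 81.0, 68.9 and 97.0 CPM in WT and 34.0 and 43.6 CPM in Dmp1KO, and fell there by 1.10 ± 0.25 (adjusted p = 0.0126), a call lost without Dmp1KO culture 2 (-0.93, adjusted p = 0.12).

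Pgk1 of stromal-like cells stood at 84.5, 125 and 87.8 CPM in WT, 169, 111 and 105 CPM in Fgf23cKO, 191 and 128 CPM in Dmp1KO and 161, 194 and 147 CPM in Dmp1KO/Fgf23cKO. It rose by 0.71 ± 0.25 (adjusted p = 0.0731) in Dmp1KO and 0.78 ± 0.23 (adjusted p = 0.0403) in Dmp1KO/Fgf23cKO on the log2 scale. The first call was lost without WT culture 1 (adjusted p = 0.18), WT culture 3 (adjusted p = 0.2) or Dmp1KO culture 2 (0.41, adjusted p = 0.44), and the second without WT culture 1 (adjusted p = 0.13), WT culture 3 (adjusted p = 0.14) or the second Dmp1KO/Fgf23cKO culture (adjusted p = 0.11). Aldoa stood at 217, 273 and 258 CPM in WT, 291, 306 and 279 CPM in Fgf23cKO, 380 and 316 CPM in Dmp1KO and 296, 334 and 298 CPM in Dmp1KO/Fgf23cKO, with no mutant culture below a WT culture. It rose by 0.48 ± 0.13 (adjusted p = 0.023) in Dmp1KO, a call lost without Dmp1KO culture 2 (0.36, adjusted p = 0.2), and by 0.31 ± 0.11 (adjusted p = 0.0935) in Dmp1KO/Fgf23cKO, a call lost without WT culture 1 or 3, Fgf23cKO culture 1 or any Dmp1KO/Fgf23cKO culture (adjusted p = 0.12 to 0.26). With cells thinned, these calls of Pgk1 and Aldoa were lost, with adjusted p values of 0.135 to 0.283.

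Ldha of stromal-like cells stood at 291, 390 and 339 CPM in WT, 405, 328 and 324 CPM in Fgf23cKO, 434 and 325 CPM in Dmp1KO and 464, 598 and 471 CPM in Dmp1KO/Fgf23cKO. The Dmp1KO/Fgf23cKO cultures lay above all others. There it rose by 0.59 ± 0.16 (adjusted p = 0.0301), and the call was lost without WT culture 1 (0.49, adjusted p = 0.1) and in the deep cluster 13 alone (0.26, adjusted p = 0.113), and with cells thinned to 1000 UMIs the value turned to -0.27 (adjusted p = 0.569), while in Dmp1KO the value was 0.16 ± 0.18 (adjusted p = 0.578). Pdk1 was thinly counted, with 4, 7 and 15 UMIs in the WT cultures and 12 to 92 in the others. It stood at 2.79, 8.03 and 6.90 CPM in WT, 10.7, 6.56 and 5.94 CPM in Fgf23cKO, 15.2 and 9.43 CPM in Dmp1KO and 14.2, 14.1 and 13.7 CPM in Dmp1KO/Fgf23cKO. It rose by 1.06 ± 0.40 (adjusted p = 0.0911) in Dmp1KO and 1.27 ± 0.35 (adjusted p = 0.0355) in Dmp1KO/Fgf23cKO on the log2 scale. The first call was lost without WT culture 1 or 3, Dmp1KO culture 2 or any Dmp1KO/Fgf23cKO culture (adjusted p = 0.1 to 0.41), and the second without WT culture 1 (0.93, adjusted p = 0.11).

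Vegfa of stromal-like cells stood at 134, 162 and 152 CPM in WT, 126, 91.1 and 114 CPM in Fgf23cKO, 137 and 107 CPM in Dmp1KO and 138, 115 and 138 CPM in Dmp1KO/Fgf23cKO. It fell by 0.43 ± 0.15 (adjusted p = 0.0972) in Fgf23cKO, and leaving out any culture but Fgf23cKO culture 1 ended that call (adjusted p = 0.1 to 0.24), as did RLE size factors (adjusted p = 0.11). Bnip3 lay between 17.5 and 31.0 CPM in WT, 19.0 and 28.5 CPM in Fgf23cKO and 19.0 and 29.4 CPM in Dmp1KO/Fgf23cKO, and at 52.4 and 27.6 CPM in Dmp1KO, where the log2 fold change of 0.79 ± 0.32 did not pass the test (adjusted p = 0.115). Slc2a1 rested on 3 to 55 UMIs per culture, at 2.09 to 16.1 CPM in WT and 3.25 to 9.18 CPM in the mutants, and passed the test in no comparison.

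**Figure D4:**
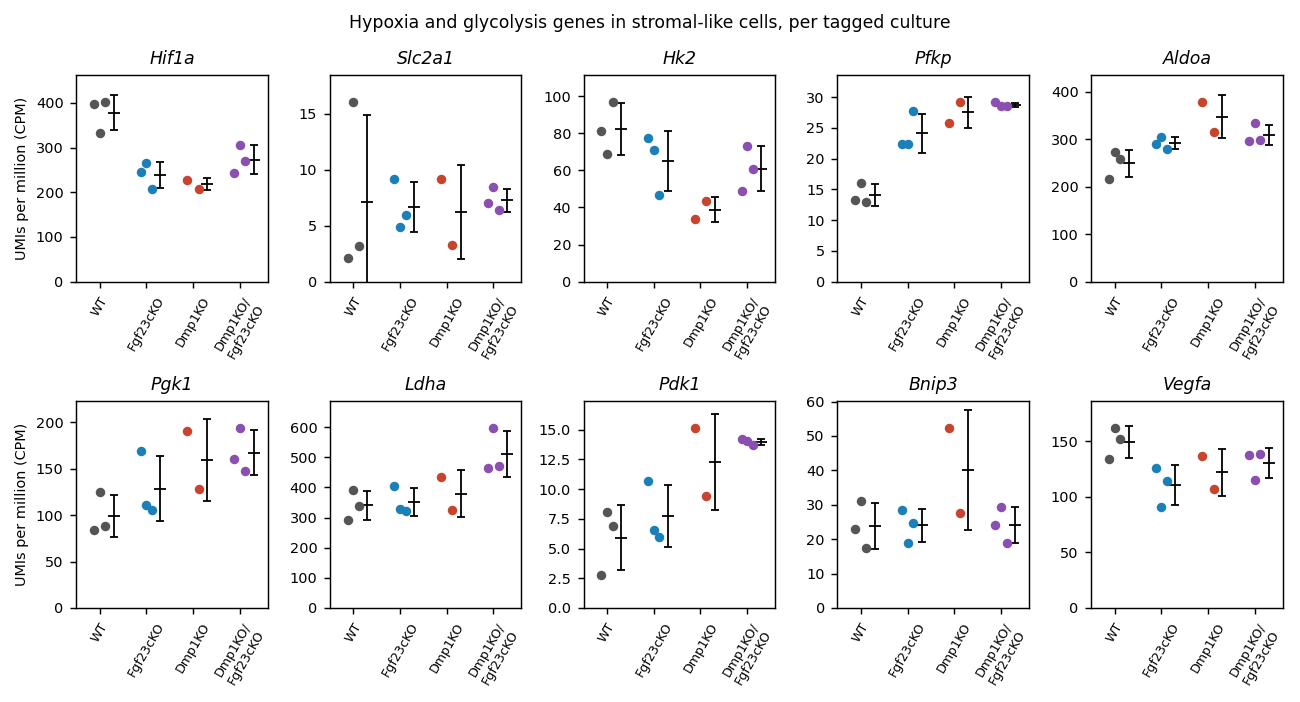
Level of each gene in stromal-like cells (y axis, CPM after TMM scaling, from 0) in each tagged culture (points), with the mean and SD of each genotype (bar, n = 2 in Dmp1KO and n = 3 elsewhere). The 3 WT cultures are the highest for Hif1a and the lowest for Pfkp, and Slc2a1, Pdk1 and Bnip3 spread widely within some genotypes.

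The stromal-like class also differed in makeup. Clusters 14 and 16, led by Ibsp, Col1a1, Bglap and other osteoblast genes, were 44.2 and 44.1% WT and 4.21 and 3.95% Dmp1KO, and gave 42.4 to 55.1% of the stromal-like UMIs of a WT culture, 9.10 to 36.6% in Fgf23cKO, 4.93 and 9.50% in Dmp1KO and 24.8 to 46.5% in Dmp1KO/Fgf23cKO. In the 3 WT cultures, Ldha stood at 354 to 490 CPM in cluster 16 and 277 to 289 CPM in cluster 13, the deeply counted cells led by Ebf1 and Col3a1. In 2 Dmp1KO/Fgf23cKO cultures with enough cells, Ldha stood at 884 and 955 CPM in cluster 16, against 340 to 359 CPM in cluster 13 of all 3. Pfkp went the other way, at 2.63 to 8.60 CPM in cluster 16 and 19.5 to 24.1 CPM in cluster 13 of WT. Without the osteoblast clusters, an alternative chosen after seeing the data, Hif1a stayed lower in Dmp1KO (-0.54, adjusted p = 0.037), Fgf23cKO (-0.58, adjusted p = 0.018) and Dmp1KO/Fgf23cKO (-0.42, adjusted p = 0.052), and Pgk1 was higher in Dmp1KO (0.77, adjusted p = 0.0029), Fgf23cKO (0.57, adjusted p = 0.0098) and Dmp1KO/Fgf23cKO (0.45, adjusted p = 0.021). Pfkp kept its call in Dmp1KO/Fgf23cKO (0.84, adjusted p = 0.01) and lost it in Dmp1KO (0.51, adjusted p = 0.14) and Fgf23cKO (0.50, adjusted p = 0.15). Ldha then passed the test in Dmp1KO (0.33, adjusted p = 0.071).

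Whether a genotype changed a gene by a different amount in the 2 classes was tested in a fit of both, with the culture as a block. In Dmp1KO compared with WT the difference, the log2 fold change in myeloid-like minus that in stromal-like cells, was 1.19 ± 0.18 (adjusted p = 0.00088) for Ldha, -0.85 ± 0.20 (adjusted p = 0.0136) for Vegfa and -1.24 ± 0.32 (adjusted p = 0.023) for Bnip3, and the other 7 members did not pass, where 15.3% of 14663 genes were called (10.6% higher and 4.73% lower). Ldha thus rose more, and Vegfa and Bnip3 fell relative to the stromal-like change. The Bnip3 call was lost without WT culture 3 (-1.13, adjusted p = 0.11) or Dmp1KO culture 2 (-0.71, adjusted p = 0.3), and the Vegfa call without Dmp1KO culture 2 (-0.68, adjusted p = 0.15). With each cell thinned to 1000 UMIs, the Vegfa difference was -0.02 (adjusted p = 1) and the Ldha difference 0.98 (adjusted p = 0.119). In Dmp1KO/Fgf23cKO compared with WT, Pdk1 (-1.46 ± 0.37, adjusted p = 0.0599) and Pfkp (-0.85 ± 0.22, adjusted p = 0.0683) differed, where 3.12% of genes were called (1.39% higher and 1.73% lower), but each lost its call without any of several single cultures, among them WT culture 1 (-1.02, adjusted p = 0.23, for Pdk1 and -0.58, adjusted p = 0.325, for Pfkp). In Fgf23cKO compared with WT 0 members were called by edgeR and 1 had an unadjusted p under 0.05, where 1.36% of genes were called (0.702% higher and 0.662% lower).

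**Figure D5:**
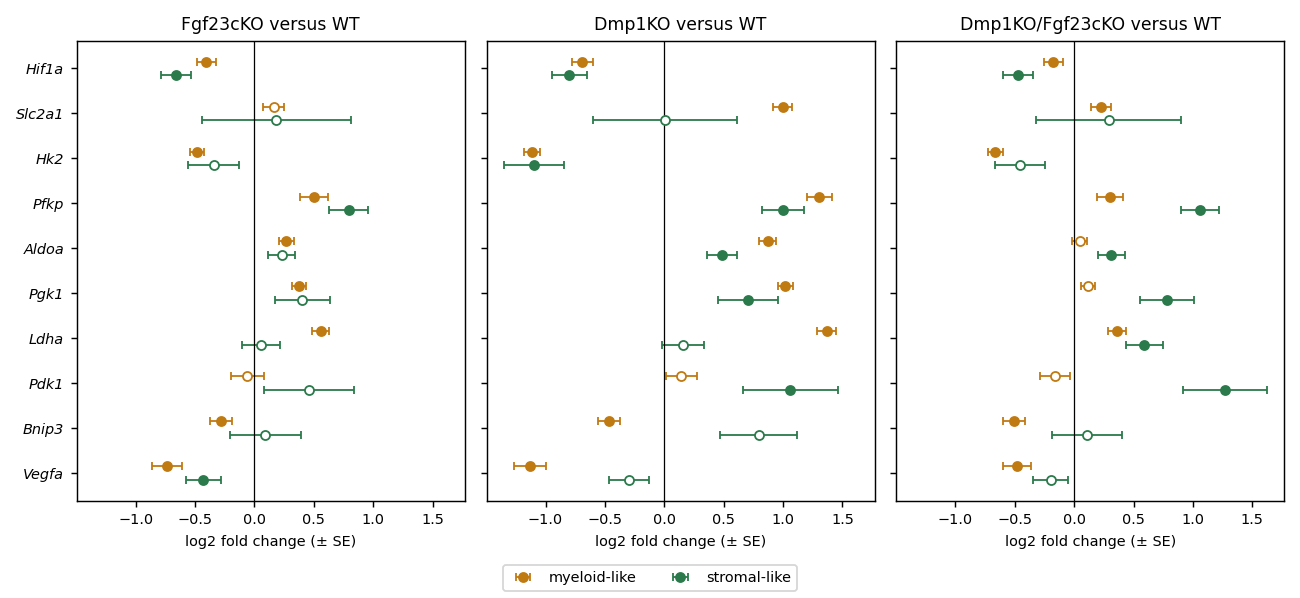
Log2 fold change against WT (x axis, ± SE) of each gene in myeloid-like and stromal-like cells of each mutant genotype. Filled points passed the test (adjusted p under 0.1) and open points did not. Hif1a lies below 0 and Pfkp above 0 in both classes of all 3 mutants, and in Dmp1KO Ldha, Bnip3 and Vegfa lie apart between the classes.

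As a description of the same sums, the classes also differed in level. In each of the 11 cultures, Hif1a (median log2 ratio of stromal-like over myeloid-like 0.82, range 0.56 to 1.09), Ldha (1.29, range 0.08 to 1.89) and Vegfa (1.23, range 0.96 to 2.05) were higher in stromal-like cells. Aldoa (-0.84, range -1.32 to -0.50), Hk2 (-0.73, range -1.20 to -0.34) and Slc2a1 (-1.74, range -3.16 to -0.35) were higher in myeloid-like cells in each of the 11. Pfkp was higher in myeloid-like cells in 10 cultures, Bnip3 in 3, and Pgk1 and Pdk1 in 6.

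Over the 11 cultures, levels in myeloid-like cells were correlated within and between 2 sets. These were the members called higher and those called lower in Dmp1KO compared with WT. Because the sets came from these same data, the correlations describe that split and do not test it. Among Slc2a1, Pfkp, Aldoa, Pgk1 and Ldha the 10 pairwise Pearson correlations of log2 CPM ran from 0.88 to 0.99, and among Hif1a, Hk2, Vegfa and Bnip3 the 6 ran from 0.49 to 0.87. The 20 correlations between the sets were all negative, from -0.93 to -0.39, and those of Pdk1 lay between -0.20 and 0.46. The cultures fall into 4 genotypes run in 4 reactions, so these values describe these 11 points and share their depth and pool. The genes most like Ldha were Ppp1r11, Eif5a and Fuca1 (0.994, 0.994 and 0.993), those most like Aldoa were Mrps24, Ccdc107 and Mrpl20 (0.997, 0.995 and 0.995), and Nme2 and Mrpl20 (0.996 and 0.995) were among those most like Pgk1. Mpc1 (0.99) was most like Slc2a1, Gar1 (0.99) most like Pfkp, Tm9sf2 (0.99) most like Hk2, Ppp1r9a (0.98) most like Hif1a, the RIKEN gene 0610030E20Rik (0.97) most like Vegfa, Dvl3 (0.95) most like Bnip3 and Aptx (0.85) most like Pdk1.

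The wider glycolysis list holds 24 genes, 6 of them members, and is given here without those 6. Of the other 18, 15 rose and 0 fell in myeloid-like cells of Dmp1KO compared with WT, where 35.8% of all genes were called higher and 34.1% lower, with a median log2 fold change of 1.10 against 0.00 over all genes. In Fgf23cKO 12 rose and 0 fell (median 0.38), against 24.6% and 23.6% of all genes, and in Dmp1KO/Fgf23cKO 12 rose and 1 fell (median 0.35), against 28.1% and 28.3%. Compared with Dmp1KO, 2 were higher and 13 lower in Dmp1KO/Fgf23cKO (median -0.68), against 30.5% and 36.7%, and compared with Fgf23cKO 2 were higher and 5 lower (median -0.06), against 9.82% and 13.4%. Eno1, the enolase, stood at 81.6 ± 0.92 CPM (SD, n = 3) in WT and 229 ± 19.9 CPM (SD, n = 2) in Dmp1KO, a log2 fold change of 1.49 ± 0.08 (adjusted p = 2.75e-10). Tpi1, triosephosphate isomerase, rose by 1.37 ± 0.09 (adjusted p = 2.58e-09). In stromal-like cells 7 of the 18 rose and 0 fell in Dmp1KO (median 0.55), where 11.2% of all genes were called higher and 13.7% lower. In Fgf23cKO 7 rose and 0 fell (median 0.50), against 7.46% and 7.98%, and in Dmp1KO/Fgf23cKO 9 rose and 1 fell (median 0.63), against 9.37% and 10.7%. Gapdh there stood at 465 ± 1.8 CPM (SD, n = 3) in WT and rose by 1.16 ± 0.13 (adjusted p = 0.00039) in Dmp1KO, 0.76 ± 0.12 (adjusted p = 0.0034) in Fgf23cKO and 0.95 ± 0.12 (adjusted p = 0.00064) in Dmp1KO/Fgf23cKO.

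The other lists are also given without their members, and they moved in both directions. In myeloid-like cells of Dmp1KO their counts stand beside 35.8% of all genes called higher and 34.1% called lower. Of 8 HIF pathway regulators other than Hif1a, 7 passed the filter in myeloid-like cells, and 3 rose and 2 fell in Dmp1KO compared with WT. Egln1, the main oxygen-sensing prolyl hydroxylase and itself a HIF target, rose in all 3 mutants compared with WT, by 0.51 ± 0.08 (adjusted p = 5.2e-05) in Dmp1KO, 0.52 ± 0.08 (adjusted p = 0.00015) in Fgf23cKO and 0.45 ± 0.08 (adjusted p = 0.00026) in Dmp1KO/Fgf23cKO, and in stromal-like cells by 0.82 ± 0.14 (adjusted p = 0.0031), 0.59 ± 0.13 (adjusted p = 0.019) and 0.76 ± 0.13 (adjusted p = 0.003). Cited2, which competes with HIF-1α for its coactivator, fell in Dmp1KO (-0.46 ± 0.10, adjusted p = 0.00084) and rose in Dmp1KO/Fgf23cKO (0.41 ± 0.09, adjusted p = 0.0013) in myeloid-like cells. Of 16 HIF targets other than glycolytic enzymes, Bnip3 and Vegfa, 13 passed the filter. In myeloid-like cells of Dmp1KO, 7 of these rose and 3 fell (median 0.66). Bnip3l, a relative of Bnip3 with a like role, rose in Dmp1KO (0.71 ± 0.06, adjusted p = 7e-08) and fell in Fgf23cKO (-0.29 ± 0.06, adjusted p = 0.0014) and Dmp1KO/Fgf23cKO (-0.47 ± 0.06, adjusted p = 9.2e-06), and so parted from Bnip3, which fell in all 3. Of 9 genes around pyruvate dehydrogenase other than Pdk1, 8 passed the filter, and 4 rose and 2 fell in myeloid-like cells of Dmp1KO. Mpc1 and Mpc2, the subunits of the mitochondrial pyruvate carrier, rose there by 0.98 ± 0.06 (adjusted p = 1e-09) and 1.04 ± 0.06 (adjusted p = 1.6e-09), while Pdk1, which acts against pyruvate oxidation, did not pass. Pdha1 rose little there (0.15 ± 0.07, adjusted p = 0.066). Pdp1 fell in Dmp1KO (-0.23 ± 0.08, adjusted p = 0.022), Fgf23cKO (-0.50 ± 0.09, adjusted p = 0.00035) and Dmp1KO/Fgf23cKO (-0.58 ± 0.08, adjusted p = 2.8e-05), so this list did not move one way. In stromal-like cells of Dmp1KO, 11.2% of all genes were called higher and 13.7% lower. There 6 of 8 HIF pathway regulators, 10 of 14 HIF targets and 6 of 9 genes around pyruvate dehydrogenase did not pass the test. Of 11 dissociation stress genes tested, 2 rose and 7 fell in myeloid-like cells of Dmp1KO compared with WT (median -0.33). Of all genes, 35.8% were called higher and 34.1% lower there. The stress list gave 0.171 and 0.174% of the UMIs of Dmp1KO myeloid-like cells and 0.213 to 0.247% of those of the other genotypes. The part of dissociation stress in these results was not tested.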

How the data were processed

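Per the labels and the study's methods, 3′ single-cell libraries of 4 genotypes were sequenced, and the authors aligned them with Cell Ranger 7.0.1 to mm10 (GRCm38), assigned cells to cultures by CellPlex tag and removed multiplets by tag. The deposited files used here hold raw UMI counts per gene and cell, and 15 samples were analysed. Multiplets within a culture remain, and no doublet caller was run. Cells were clustered with Seurat 5.3.0 and sctransform 0.4.2 in R 4.3.3 (3000 variable genes, from which 19 genes of the members and pathway lists were kept out, 30 principal components, resolution 0.8), and classes were named from markers. For each tagged culture, the counts of a class were added up over its cells (at least 10) and tested with edgeR 4.0.16 (filterByExpr, TMM, quasi-likelihood test, Benjamini-Hochberg adjustment over all genes tested, threshold 0.1). DESeq2 1.42.0 was an alternative, as were other filters, class definitions, cells thinned to 1000 UMIs and each culture left out. The fits within cluster 3 and those on stromal subsets were added after seeing the data. Class sums held 911916 to 45873369 UMIs per culture, and the thinnest, the stromal-like sums, are the least precise. The 10 members were all named, and from each pathway list at most 4 genes per class could be named, those called in the most comparisons, ties broken by the size of the fold change. The members and lists were chosen with earlier results of these data known. Scripts were tested on simulated data, and matplotlib 3.10.9 drew the plots. The first Dmp1KO culture was not analysed here, because its counts were not among the files used. A gene among those most like Pgk1 is not reported here.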

Additional observations from a re-analysis of the deposited data

Results flagged for a closer look

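For 5 results the change against WT differed between myeloid-like and stromal-like cells by the test of the difference itself (edgeR's quasi-likelihood test, adjusted p under 0.1, n = 2 cultures of Dmp1KO and n = 3 of the others). Of all genes, 15.3% were called by this test in Dmp1KO and 3.12% in Dmp1KO/Fgf23cKO. In Dmp1KO compared with WT, Ldha rose more in myeloid-like than in stromal-like cells, by 1.19 on the log2 scale. Bnip3 differed by -1.24, with a fall in myeloid-like cells and a stromal-like value above 0 that did not pass the test. Vegfa differed by -0.85, with the larger fall in myeloid-like cells. In Dmp1KO/Fgf23cKO compared with WT, Pdk1 differed by -1.46 and Pfkp by -0.85, and both rose in stromal-like cells. Groups of 2 or 3 cultures were not tested for a culture that stood apart.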

How the results depend on the processing

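Of 130 values of the members, 59 passed the test. Of these, 39 were in myeloid-like cells, where 23.2 to 69.9% of all genes were called, depending on the comparison. Another 15 were in stromal-like cells (1.71 to 24.9% of all genes) and 5 were differences between the classes (1.36 to 15.3%). Of the 59, 12 kept their direction and side of the threshold in every alternative in which they were tested. The alternatives were 20 settings and 11 cultures left out in turn. Not every value was tested in each, since some settings cover 1 class only and some values were not tested with cells thinned. No called value changed sign when a culture was left out. Among values that passed the test before or after, the sign turned within cluster 3 in Dmp1KO compared with WT for Slc2a1 (-0.42) and Aldoa (-0.0893), in Fgf23cKO for Slc2a1 (-0.64), Pfkp (-0.65), Aldoa (-0.13) and Pgk1 (-0.0003), in Dmp1KO/Fgf23cKO for Slc2a1 (-0.46), Pfkp (-0.39), Aldoa (-0.29) and Pgk1 (-0.27), and in Dmp1KO/Fgf23cKO compared with Dmp1KO for Hif1a (-0.36). Among the same values it turned with cells thinned to 1000 UMIs in myeloid-like cells for Bnip3 in Fgf23cKO (0.29), Pfkp in Dmp1KO/Fgf23cKO (-0.0506) and Hk2 in Dmp1KO/Fgf23cKO compared with Fgf23cKO (0.0369), and in stromal-like cells for Ldha in Dmp1KO/Fgf23cKO (-0.27). Thinning and subsets leave fewer counts, and the cause was not tested otherwise.

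Counts of all genes called moved under several settings. In myeloid-like cells, 9212 genes were called in Dmp1KO, 6356 in Fgf23cKO and 7434 in Dmp1KO/Fgf23cKO compared with WT, against 3964, 1332 and 2225 with cells thinned and 2624, 3783 and 4081 in cluster 3. Compared with Dmp1KO, 8854 were called in Dmp1KO/Fgf23cKO, 2779 with cells thinned and 830 in cluster 3. Compared with Fgf23cKO, 3057 were called, 280 with cells thinned, 807 in cluster 3, 5159 with cells classed one by one and 4650 with cycling and osteoclast clusters included. In stromal-like cells, 3097 were called in Dmp1KO compared with WT, 446 with cells thinned, 1828 without the osteoblast clusters, 1409 in the deep cluster and 725 in the shallow cluster. In Fgf23cKO 1921 were called, 254 with cells thinned, 2976 with untagged samples, 909 in the shallow cluster and 1137 at an adjusted p under 0.05. In Dmp1KO/Fgf23cKO 2501 were called, 386 with cells thinned and 1260 in the shallow cluster. Compared with Dmp1KO, 1302 were called, 69 with cells thinned, 2947 with untagged samples, 294 without the osteoblast clusters, 111 in the deep cluster, 100 in the shallow cluster and 619 at an adjusted p under 0.05. Compared with Fgf23cKO, 213 were called, 591 with no filter, 355 by DESeq2, 10 with cells thinned, 1005 with untagged samples, 7 in the shallow cluster and 75 at an adjusted p under 0.05. For the difference between classes, 2247 were called in Dmp1KO, 105 with cells thinned. In Fgf23cKO 200 were called, 705 with no filter, 62 with cells classed one by one, 36 with cells thinned, 623 with untagged samples and 109 at an adjusted p under 0.05. In Dmp1KO/Fgf23cKO 457 were called, 1025 with no filter, 227 with cells thinned, 742 with untagged samples and 277 at an adjusted p under 0.05.

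With 1 culture left out, the counts ran in myeloid-like cells from 8188 to 9391 (Dmp1KO), 5337 to 6423 (Fgf23cKO) and 6401 to 7690 (Dmp1KO/Fgf23cKO) compared with WT, 7296 to 9056 compared with Dmp1KO and 2107 to 3303 compared with Fgf23cKO. In stromal-like cells they ran from 1430 to 3307, 1186 to 1758, 1709 to 2683, 121 to 1569 and 27 to 248 in the same order, and for the difference between classes from 846 to 2496 (Dmp1KO), 69 to 227 (Fgf23cKO) and 182 to 558 (Dmp1KO/Fgf23cKO). The replicate numbers did not pair the samples: over 15 same-numbered pairs the correlation of deviations had a median of 0.0005 in myeloid-like and -0.075 in stromal-like cells. With the replicate block, 741 genes were called between Dmp1KO/Fgf23cKO and Dmp1KO and 93 between Dmp1KO/Fgf23cKO and Fgf23cKO in stromal-like cells, and of the members' values 94 kept their side of the threshold. DESeq2 and the replicate block were not run for the difference between classes, whose fit already holds the culture as a block. Depth limits the stromal-like values of Slc2a1 and Pdk1 most, and the single reaction per genotype limits every comparison.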

Other observations

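Cells outside both classes also differed in the members. The osteoclast-like cluster (297 cells, 258 tagged, 77.8% from WT), led by Acp5 and Mmp9, had Pdk1 at 36.8 CPM, Pgk1 at 300 CPM, Ldha at 418 CPM and Aldoa at 771 CPM in its summed tagged cells, while Vegfa was at 21.3 CPM there. Cluster 4, unnamed, led by Fbxo32 and Atp6v0d2 and mostly from Dmp1KO (974 of 1189 cells), had Aldoa at 836 CPM, Pfkp at 92.5 CPM and Pdk1 at 3.45 CPM. The median myeloid marker was detected in 94.2% of its cells. It was kept out of the myeloid-like class because 1 osteoclast marker was among its 10 leading genes. It held 16.7 and 15.3% of the cells of the Dmp1KO cultures and 0.05 to 0.27% in WT. With it included, 4 values of the members lost their call and 2 gained one. Cluster 18, unnamed, with Apod and Cdh19 among its leading genes, had Pfkp at 131 CPM and Vegfa at 8.65 CPM over 93 tagged cells. These CPM values are sums over cells of several cultures and carry no test.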
